A study of Mus musculus with 8 samples.

Results

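The microRNAs (miRNAs) of the Rtl1 stretch of the imprinted Dlk1-Dio3 region were examined in infarcted mouse hearts. They are 10 probe sets of mature miRNAs, taken by a fixed list of identifiers from 1908 mature probe sets on the array. The list holds both arms of miR-433, miR-127, miR-434 and miR-136, with miR-431-5p and miR-337-3p, and its members were chosen by name with the MI and sham log2 intensities of these same hearts known. The MI and sham comparisons that follow therefore describe the 10 probe sets and are not given as tests.

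Whole hearts of male C57/BL6 mice, labelled as 8 weeks old, were compared 21 days after surgery. In the MI group (myocardial infarction, 4 hearts) the left anterior descending coronary artery had been tied off, and in the sham group (4 hearts) the animals had the sham operation only. The titles add nc in both groups and the labels do not explain it. Each heart was read on 1 Affymetrix miRNA 4.0 array, and the deposited values are log2 intensities. The numbers in the titles are kept here, so the MI hearts are numbered 1, 4, 5 and 7 and the sham hearts 1 to 4. Nothing in the labels says how much scar or surviving muscle a sample held. In whole hearts, a larger number of cells that make a miRNA and more of it per cell cannot be told apart.

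The Dlk1-Dio3 region of mouse chromosome 12 is imprinted. Protein genes such as Dlk1 and Rtl1 are active on the paternal copy, and long noncoding RNAs and a large set of miRNAs are made from the maternal copy. Rtl1 is a retrotransposon-derived gene needed for the placenta and muscle, and the miRNAs of miR-431, miR-433, miR-127, miR-434 and miR-136 are processed from a transcript that runs antisense to it. They are fully complementary to the Rtl1 message and can direct its cleavage. The miRNAs of the whole region are known for high levels in the embryo, the placenta and the brain.

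All 10 names were found in the RefSeq miRNA table (GRCm38.p6). The 6 hairpins lie on the plus strand of chromosome 12 within 9600 bp, and all 6 fall inside the span that RefSeq gives for Rtl1 (chr12:109564900-109604418). The table used for this does not give the strand of Rtl1. The hairpins of Mir431, Mir433, Mir127, Mir434 and Mir136 sit within 4942 bp. Mir337 (chr12:109585789-109585885) stands 4561 bp upstream of Mir431, so the label of Rtl1-antisense miRNA is the least certain for miR-337-3p. A minus-strand hairpin overlaps Mir337 (Mir3544, chr12:109585813-109585873) and another overlaps Mir136 (Mir3071, chr12:109595318-109595397).

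The mature sequences are shown because each miRNA selects its targets mainly by its seed, bases 2 to 8, which is in capitals. They are in genomic order.
miR-337-3p: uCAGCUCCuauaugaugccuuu
miR-431-5p: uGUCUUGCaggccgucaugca
miR-433-5p: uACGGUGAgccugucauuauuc
miR-433-3p: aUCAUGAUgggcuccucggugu
miR-127-5p: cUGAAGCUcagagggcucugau
miR-127-3p: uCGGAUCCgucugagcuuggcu
miR-434-5p: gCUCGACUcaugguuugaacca
miR-434-3p: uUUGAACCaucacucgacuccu
miR-136-5p: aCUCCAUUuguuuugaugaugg
miR-136-3p: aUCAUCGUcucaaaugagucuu

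The 10 miRNAs carry 10 different seeds, so they form no seed family. None of these seeds occurs at bases 2 to 8 of any other of the 1679 mature mouse names in the table. The miRNAs share a place in the genome and no seed. The longest run of bases common to any pair is 9, found in both arms of miR-434 (UUUGAACCA), and the longest common to members of different hairpins is 7, in miR-433-3p and miR-136-5p (AUGAUGG).

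Without detection calls, the floor of the array was read from spike-in control probe sets. Of 22, 17 were dim, and their highest reading on any array was 2.06 log2 units. A miRNA that stays under 2.06 has no measured level here, which does not show that it is absent. By this measure the 10 probe sets divide into 3 kinds. Both miR-127-3p and miR-434-3p were above the dim controls in all 8 hearts. Both miR-433-3p and miR-431-5p were above them in all 4 MI hearts and in 0 of 4 sham hearts. The share of all mature probe sets with this pattern was not computed, so nothing is read from how many members show it. The other 6 were at or near the floor, 5 of them in every heart and miR-434-5p in all but 1 MI heart.

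In the fit over all 1908 mature probe sets (limma, Benjamini-Hochberg adjustment, threshold 0.05), 1 of the 10, miR-433-3p, lay past the threshold and was higher in MI hearts. The background is 0.524% of all mature probe sets called higher. The count of the 10 called lower was 0, as it was among all mature probe sets (0%). In the unmoderated test 0 of the 10 were called lower, and all 7 mature probe sets called there were higher. At an unadjusted p under 0.05 in limma, 6 of the 10 were higher in MI hearts, against 3.09% of all mature probe sets, and 0 of the 10 were lower, against 3.2%. The 6 include miR-434-5p and miR-127-5p, which were at or near the floor. In 5 of the 10 all MI values exceeded all sham values, against 2.88% of all mature probe sets, and in 0 of the 10 they all fell below, against 1.26%. Since the 10 were listed with this contrast known, nothing is read from these shares. The median difference, MI minus sham, was 0.42 log2 units over the 10 and -0.0039 over all mature probe sets.

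**Figure D1:**
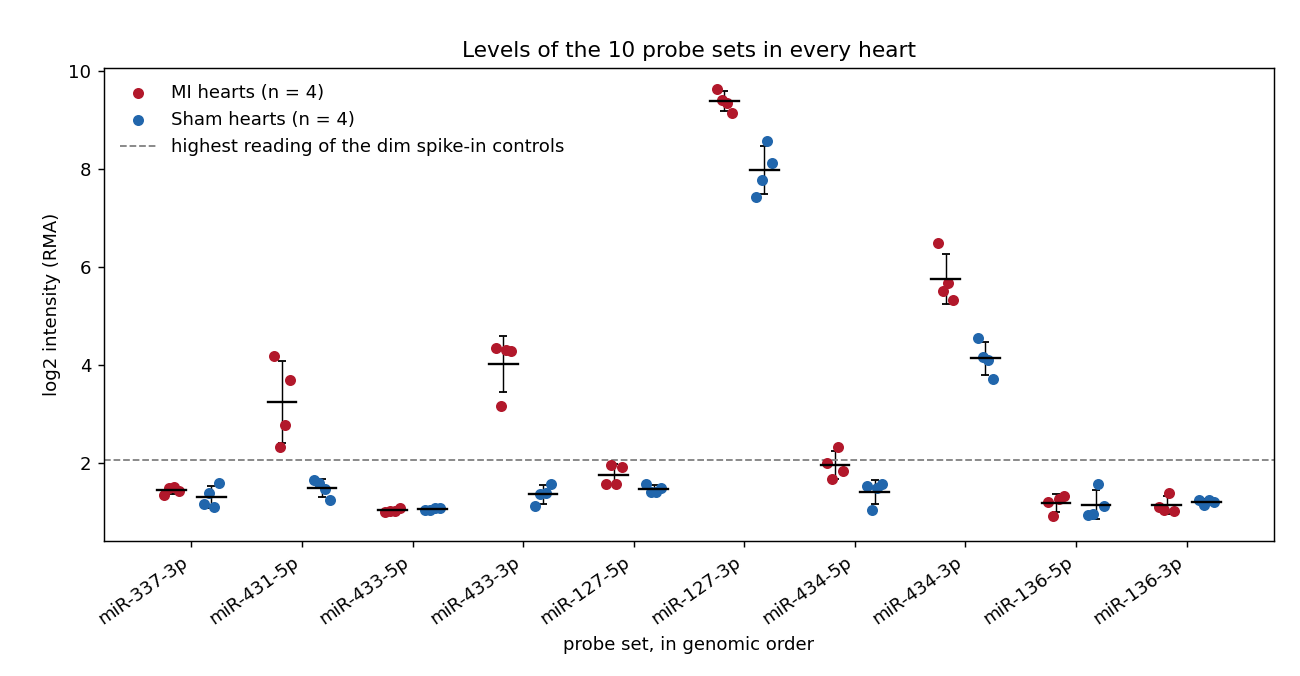
Log2 intensity (vertical axis) of the 10 probe sets in genomic order, with a point for each MI heart (red, left of each pair) and each sham heart (blue, right). Horizontal bars are group means, whiskers are SD (n = 4 each), and the dashed line at 2.06 is the highest reading of the dim spike-in controls. For miR-431-5p, miR-433-3p, miR-127-3p and miR-434-3p the red points clear the line and all blue points of the same probe set.

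miR-433-3p (MIMAT0001420_st), described elsewhere in mice and rats as a miRNA of cardiac fibroblasts that favours fibrosis, had the largest difference of the 10. It read 4.35, 3.16, 4.31 and 4.29 log2 units in MI hearts 1, 4, 5 and 7, against 1.12, 1.36, 1.39 and 1.58 in sham hearts 1 to 4. All MI hearts were above the dim controls and all sham hearts below them, with MI heart 4 more than 1 unit under the other MI hearts. The means were 4.03 ± 0.577 in MI hearts and 1.36 ± 0.190 in sham hearts (SD, n = 4 each). The fitted difference was 2.67, with a limma standard error (SE) of 0.270. Against the floor of 2.06, at which each sham heart was set because the array measured no level there, miR-433-3p was at least 3.93-fold higher in MI hearts. That bound regards the background only and leaves out the spread between hearts. Leaving out MI heart 4, the lowest of its group, necessarily widens the difference, to 2.95. That it stayed past the threshold then supports nothing.

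The hairpin of Mir433 (chr12:109591715-109591838) is printed with both arms in capitals, 5p first, because only the second of them was measured above the floor.
Mir433: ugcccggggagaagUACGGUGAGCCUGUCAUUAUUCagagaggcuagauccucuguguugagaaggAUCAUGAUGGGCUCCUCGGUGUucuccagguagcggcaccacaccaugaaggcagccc

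The 5p arm of the same hairpin (MIMAT0001419_st) read 1.01 to 1.09 in MI hearts and 1.04 to 1.08 in sham hearts. These ranges overlap, all values lie at the floor, and the difference was -0.03 (SE 0.068, limma). Whether the arms of miR-433 responded unequally cannot be read from this, since miR-433-5p had no measured level in either group.

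miR-431-5p (MIMAT0001418_st), a miRNA linked in mice to muscle stem cells and muscle regeneration, had the same pattern with more spread. It read 4.18, 2.34, 2.79 and 3.70 in MI hearts 1, 4, 5 and 7, against 1.65, 1.59, 1.47 and 1.25 in sham hearts 1 to 4. Every MI heart was above the dim controls, MI heart 4 only just, and every sham heart was below them. The means were 3.25 ± 0.841 in MI hearts and 1.49 ± 0.177 in sham hearts (SD, n = 4 each), a difference of 1.76 (SE 0.376, limma). With values under 2.06 set to 2.06, the difference was 1.20. Against the floor of 2.06 this is at least 2.29-fold higher in MI hearts. Like the bound for miR-433-3p, it is taken from the MI mean and leaves out the spread between hearts. The probe set did not reach the threshold over all mature probe sets. The difference was 2.07 without MI heart 4 and 1.45 without MI heart 1.

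miR-127-3p (MIMAT0000139_st), the miRNA of this stretch best known for directing cleavage of Rtl1 RNA, read 7.44 or more in every heart. Its values were 9.64, 9.42, 9.37 and 9.15 in MI hearts 1, 4, 5 and 7, against 7.44, 7.79, 8.58 and 8.12 in sham hearts 1 to 4. The MI hearts lay within 0.494 units of each other and the sham hearts within 1.14, and the lowest MI heart was 0.562 above the highest sham heart. The means were 9.39 ± 0.203 in MI hearts and 7.98 ± 0.485 in sham hearts (SD, n = 4 each). The difference was 1.41 (SE 0.236, limma), a 2.65-fold higher level, rank 25 of 1908. It did not reach the threshold with all 8 arrays. Leaving out sham heart 3, the highest of its group, necessarily widens the difference, to 1.61, and then it passed. Without any other single heart it did not pass, with differences from 1.23 to 1.49.

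The spread of miR-127-3p was compared with the hybridisation controls (bacterial bioB and bioC transcripts, 15 probe sets), which are added to each sample and carry no mouse RNA. No relation was detected, but 8 hearts are too few to show that there is none. The mean of the controls was 11.2, 11.1, 11.9 and 11.6 log2 units in sham hearts 1 to 4, so that sham heart 3 was highest in both measures. The lowest was sham heart 1 for miR-127-3p and sham heart 2 for the controls. Over the 8 hearts, after the group mean was subtracted, Pearson's r was 0.787 (exact permutation within groups, p = 0.092, adjusted p = 0.276 over 3 relations) and Spearman's rho was 0.643 (exact permutation p = 0.233, adjusted p = 0.349). Without sham hearts 2 and 3, the pair farthest from the median control level, r was 0.605. The controls were 0.049 higher on average in MI hearts than in sham hearts. With their mean as a covariate, an alternative chosen after these values were seen, the difference of miR-127-3p was 1.36 (SE 0.165, limma). That it then lay past the threshold supports nothing.

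miR-434-3p (MIMAT0001422_st), which has been studied in ageing mouse muscle, was also measured in all hearts. It read 6.50, 5.51, 5.69 and 5.34 in MI hearts 1, 4, 5 and 7, against 4.55, 4.17, 4.11 and 3.72 in sham hearts 1 to 4. The groups did not overlap, with 0.786 units between the lowest MI heart and the highest sham heart. The means were 5.76 ± 0.517 in MI hearts and 4.14 ± 0.339 in sham hearts (SD, n = 4 each), a difference of 1.62 (SE 0.274, limma), a 3.07-fold higher level and rank 20 of 1908. It did not reach the threshold with all arrays. Without MI heart 1, the highest, the difference was 1.37 and lay past the threshold, with the remaining MI hearts between 5.34 and 5.69. Without any other single heart it did not pass, with differences from 1.48 to 1.76.

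The hairpin of Mir434 (chr12:109594506-109594599) is shown with both arms in capitals because its arms contain the same run of 9 bases, at the end of the 5p arm and at the start of the 3p arm.
Mir434: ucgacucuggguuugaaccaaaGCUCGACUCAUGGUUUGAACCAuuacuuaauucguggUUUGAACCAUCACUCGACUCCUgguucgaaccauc

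miR-434-5p (MIMAT0001421_st) was the fifth probe set whose groups did not overlap, but by a narrow margin at the floor. It read 2.01, 1.67, 2.33 and 1.83 in MI hearts 1, 4, 5 and 7, against 1.53, 1.03, 1.50 and 1.57 in sham hearts 1 to 4. Only MI heart 5 exceeded the dim controls, and the gap between the groups was 0.0965 units. The difference was 0.55 (SE 0.176, limma). With values under 2.06 set to 2.06 it was 0.07. No fold is given, since the array measured no level in sham hearts and a level in 1 of 4 MI hearts.

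**Figure D2:**
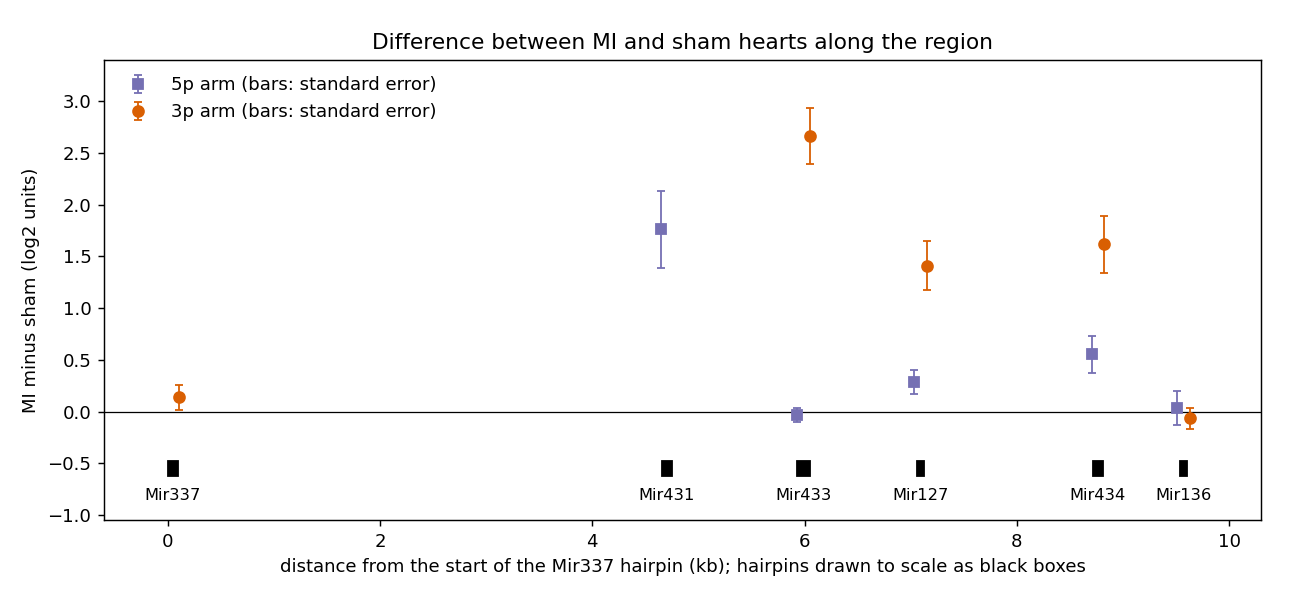
Difference between group means, MI minus sham, in log2 units (vertical axis) against distance from the start of the Mir337 hairpin in kb (horizontal axis). Squares are 5p arms, circles are 3p arms, bars are standard errors from limma, and black boxes are the 6 hairpins to scale. The 4 differences over 1 unit belong to Mir431, Mir433, Mir127 and Mir434, 1 arm each, and Mir431 has only 1 arm in the list. The other 6 points come from probe sets at or near the floor. These include both ends of the stretch, Mir337 and Mir136, so their place near 0 shows no lack of change.

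The remaining arms gave no level in either group. miR-127-5p (MIMAT0004530_st) read 1.57 to 1.96 in MI hearts and 1.41 to 1.58 in sham hearts, which overlap, and the difference was 0.29 (SE 0.119, limma). miR-136-5p (MIMAT0000148_st) read 0.920 to 1.34 in MI hearts and 0.938 to 1.57 in sham hearts, a difference of 0.03 (SE 0.163). miR-136-3p (MIMAT0004532_st) read 1.01 to 1.40 in MI hearts and 1.14 to 1.26 in sham hearts, a difference of -0.07 (SE 0.103). miR-337-3p (MIMAT0000578_st) read 1.35 to 1.51 in MI hearts and 1.10 to 1.60 in sham hearts, a difference of 0.14 (SE 0.121). In all 4 the groups overlapped and every heart lay under the dim controls. The MI-minus-sham differences in these arms and in miR-433-5p, the 0.29 of miR-127-5p included, are differences between readings under the dim controls.

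By base composition, the 4 miRNAs measured in all MI hearts had a G and C content of 59.1% (miR-127-3p), 57.1% (miR-431-5p), 54.5% (miR-433-3p) and 45.5% (miR-434-3p). Of the 6 at or near the floor, miR-127-5p had 54.5%, miR-434-5p 50%, miR-433-5p 45.5%, miR-337-3p 40.9%, and both arms of miR-136 had 36.4%. The ranges overlap, with the lowest contents in miR-136, of which neither arm was seen. G and C content can alter how strongly a probe binds, and its part in which arms were seen was not tested.

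**Figure D3:**
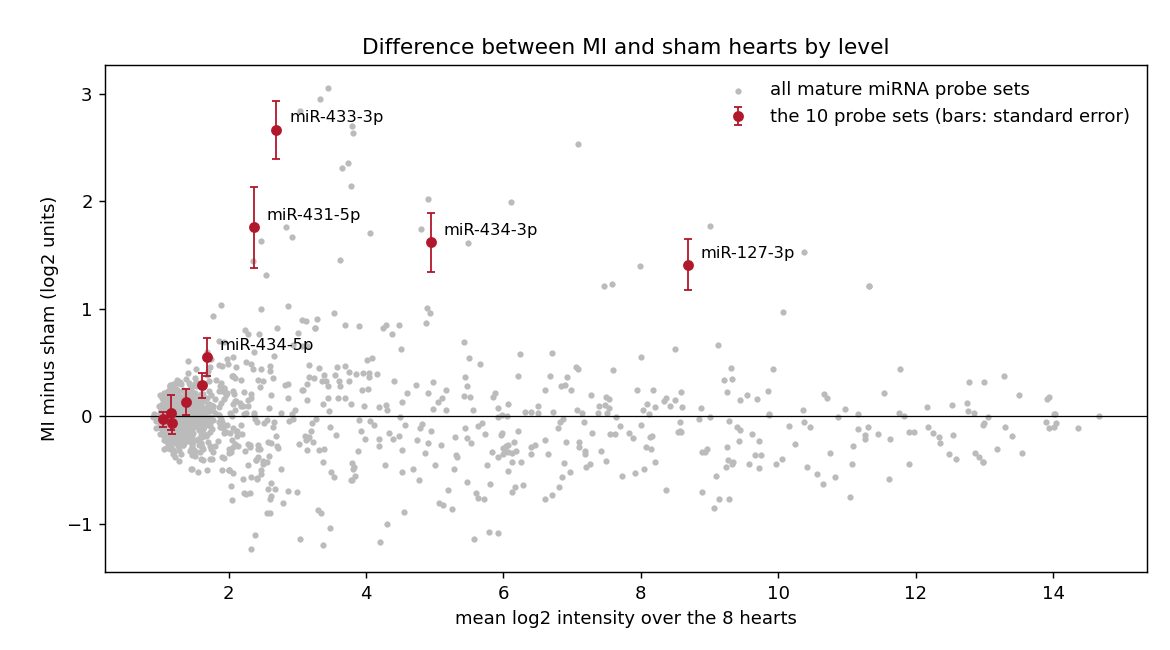
Difference, MI minus sham, in log2 units (vertical axis) against the mean log2 intensity over the 8 hearts (horizontal axis), with all 1908 mature probe sets in grey and the 10 in red with standard errors from limma. The named probe sets are those that differ by more than 0.5 units, and miR-127-3p is the one farthest to the right among them.

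The 4 miRNAs measured in all MI hearts were highest in the same animal. MI heart 1 held the highest value of miR-127-3p (9.64), miR-434-3p (6.50), miR-433-3p (4.35) and miR-431-5p (4.18). The lowest MI value belonged to heart 4 for miR-433-3p and miR-431-5p and to heart 7 for miR-127-3p and miR-434-3p, so the order below heart 1 was not shared. For miR-433-3p the lead of heart 1 over heart 5 was small (4.35 against 4.31). Among sham hearts the order differed between the 2 miRNAs that were measured there. Sham heart 1 was the lowest for miR-127-3p (7.44) and the highest for miR-434-3p (4.55).

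After the group means were subtracted, no shared variation of miR-127-3p and miR-434-3p was detected over the 8 hearts. Pearson's r was -0.020 (exact permutation within groups, p = 0.972, adjusted p = 0.972 over 3 relations) and Spearman's rho 0.095 (exact permutation p = 0.823, adjusted p = 0.823). Without sham hearts 1 and 3, the pair farthest from the median of miR-127-3p, r was 0.520. The relation of miR-434-3p to the hybridisation controls had the opposite sign to that of miR-127-3p, with r of -0.406 (exact permutation within groups, p = 0.290, adjusted p = 0.435), rho of -0.500 (exact permutation p = 0.181, adjusted p = 0.349) and r of -0.616 without sham hearts 2 and 3. None of the 3 relations passed, and 8 hearts are too few to show that they are absent. Both miR-433-3p and miR-431-5p were measured in 4 hearts only, which are too few for a correlation.

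**Figure D4:**
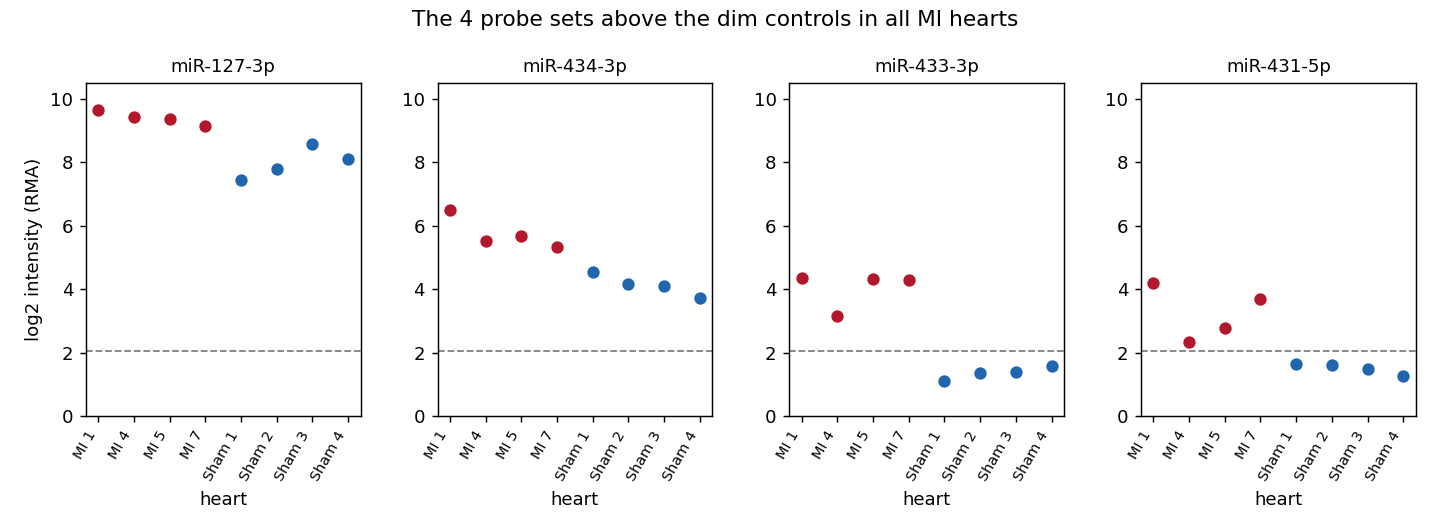
Log2 intensity (vertical axes, same scale) in each heart (horizontal axes, MI hearts in red and then sham hearts in blue) for the 4 probe sets above the dim controls in all MI hearts. The dashed line at 2.06 is the highest reading of the dim controls. MI heart 1 is the highest in each panel, and sham hearts 3 and 4 are higher than sham hearts 1 and 2 for miR-127-3p but not for miR-434-3p.

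Over the series as a whole, between 457 and 546 of the mature probe sets exceeded the dim controls on an array, fewest in sham hearts 3 and 4. The other arms of Mir431 and Mir337, the rest of the Dlk1-Dio3 miRNAs, the hairpin probe sets of these genes and the miRNAs that mark heart muscle, fibroblasts, blood cells, vessels or other tissues could not be assigned to rows, because the deposited table gives accessions without names. The part of a change in cell make-up in the differences above was therefore not tested. In the same limma fit run on the 1255 hairpin probe sets, 0 passed the threshold. So no hairpin probe set of these genes passed it, whichever rows they are.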

How the data were processed

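Per the labels' protocols, total RNA of each heart was tailed with poly(A) and labelled with biotin. Per the submitters' processing notes, the authors ran RMA, and the deposited table is on its log2 intensity scale. This method subtracts background, puts arrays on a common distribution and combines the probes of a probe set into one value. No version or detection call is stated in the labels. Such values flatten near the floor, which can understate differences of dim probe sets. The number of arrays limits the precision. The table holds 3222 probe sets, of which 1908 are mature, 1255 hairpin and 59 control. The rows carry accessions only. The 10 names came with the list of identifiers and were matched by name to RefSeq sequences.

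MI was fitted against sham with limma 3.58.1 under R 4.3.3 (two-sided, lmFit and eBayes, with no term but the group) over all mature probe sets. Benjamini-Hochberg adjustment was used with a threshold of 0.05. The fit was first run on simulated data, with differences placed only in the upper 25% by level. That check therefore does not cover members at or near the floor. The members, the lists and the dim-control criterion (mean under 5) were chosen with earlier results of these data known. All 10 members were named. Correlations between members were planned as a description without a p-value. The permutation p-values and the relations to the hybridisation controls were not planned. The planned lists of other Dlk1-Dio3 miRNAs, cell type markers, most similar probe sets and member hairpins were not used, since no source given here pairs those accessions with names. The labels number the hearts of each group and give no batch. The limma p-values set a difference against the spread between these samples within groups. In that spread, differences between animals and between arrays cannot be told apart.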

Additional observations from a re-analysis of the deposited data

Results flagged for a closer look

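Among the 10 probe sets, 2 of 20 groups of 4 hearts held a value far from the others, where chance, at about 1 in 20, gives 1. For miR-433-3p, MI heart 4 read 3.16 log2 units against 4.29 to 4.35 in the rest of the MI group, and the gap took up 0.950 of the range. For miR-434-5p, sham heart 2 read 1.03 against 1.50 to 1.57 in the rest of the sham group, and the gap took up 0.861 of the range, and all 4 values lie under the dim controls.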

How the results depend on the processing

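Of the 10 probe sets, 1 (miR-433-3p) lay past the threshold with the deposited values, and 10 of all mature probe sets did. The counts were 3 of the members and 20 of all in the upper 50% by level, which holds 7 of the 10, and 4 and 22 in the upper 25%, which holds 4 of the 10. Of these, miR-433-3p and miR-431-5p pass the level filter only through their MI hearts, so their calls in the upper 25% are set in part by the contrast and support nothing. The counts were also 4 and 25 after centring on the upper 25%, 3 and 18 with an intensity trend and robust prior, 3 and 17 with array weights, and 3 and 15 with quantile normalization. Restriction tests fewer probe sets, and the other causes were not tested. Leaving out each array gave 1 to 2 of the members and 7 to 17 of all, with 2 of the members without sham heart 3 (miR-127-3p added, 17 in all) or MI heart 1 (miR-434-3p added). The unmoderated test gave 1 of the members and 7 of all. With the replicate number as a block, 0 of the members and 0 of all passed in limma, where miR-433-3p still differed by 2.40 (standard error 0.525). The groups share 2 numbers, 1 and 4, so the difference in this fit comes from MI and sham hearts 1 and 4 alone. The fit leaves 1 residual degree of freedom. The deviations of same-numbered hearts correlated at -0.294 and -0.0446, which gave no reason to pair them. Chosen after seeing the data, the hybridisation covariate gave counts of 2 and 13, and setting values under 2.06 to 2.06 gave 3 and 13. The latter dropped probe sets never above 2.06, so its 13 is also out of fewer than 1908, and held 5 of the 10. Of these, miR-433-3p, miR-431-5p and miR-434-5p stayed only through MI hearts, so the call of miR-433-3p there supports nothing. Over the 18 alternatives, the differences were 1.97 to 2.95 for miR-433-3p and 1.20 to 2.07 for miR-431-5p. They were 1.23 to 1.75 for miR-127-3p and 1.37 to 1.87 for miR-434-3p. In these 4 every MI heart exceeded every sham heart, so no omitted array, level filter, array weight or floor could reverse the sign. The alternatives called them 17, 3, 9 and 7 times, with the level filters and the fits chosen after seeing the data included. These tallies refit the same arrays and support nothing. The median difference of the members was 0.42, with 0.262 under the replicate block, 0.530 after centring on the upper 25%, and 0.348 to 0.458 without each array in turn. The alternatives for member hairpins were not run, since no name table links their accessions. Low signal limits the 6 members at or near the floor.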
